A study of Mus musculus with 7 samples.

Results

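The nuclear-encoded genes of the mitochondrial respiratory chain were followed complex by complex in single-cell RNA libraries of mouse muscle, muscle stem cells and cultured myoblasts. Members were the rows whose symbol starts with Nduf, Uqcr or Atp5, or with Cox followed by a digit from 4 to 8, together with Sdha, Sdhb, Sdhc, Sdhd, Cyc1 and Cycs, and rows ending in -ps were left out. This rule used gene names and no measured value. It took 94 of the 27998 genes in the tables, of which 38 were named as subunits of complex I, 7 as complex I assembly factors (Ndufaf), 4 belonged to complex II, 9 to complex III, 18 to complex IV, 17 to complex V, and 1, Cycs, is the electron carrier cytochrome c. A few rows are not subunits of the complex their symbol names: Ndufa4 is found in complex IV, Cox7a2l acts in joining complexes III and IV, and Atp5s and Atp5sl are not part of the ATP synthase. They were counted under their symbols.

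The respiratory chain passes electrons from NADH (complex I) and succinate (complex II) through complex III and cytochrome c to oxygen at complex IV, and the proton gradient that this builds drives the ATP synthase, complex V. Most subunits are encoded in the nucleus and a few in the mitochondrial genome, so that each working complex except complex II needs both sources. Muscle stem cells, or satellite cells (MuSCs), are known to rest with little mitochondrial activity and to raise it when they activate after injury, while muscle fibres are among the cells richest in mitochondria and use fibre isoforms of some complex IV subunits.

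The libraries formed 4 groups and were made with the 10X Genomics 3′ chemistry that counts unique molecular identifiers (UMIs), 1 for each captured transcript end. Primary myoblasts (1 library) had grown out of hindlimb muscle of 3-month-old mice and were taken after 4 to 5 passages on collagen-coated plates in HAM's F10 with 10% horse serum and bFGF at 2.5 ng/µl. Injured MuSCs (2 libraries) were sorted from TE-EDL muscles 60 h after injection of 2 µM notexin, a snake venom toxin that destroys fibres. Homeostatic MuSCs (2 libraries) were sorted from uninjured muscle, and total muscle (2 libraries) was the live sorted fraction of digested hindlimb muscle of 3-month-old wild-type C56BL/6J mice. The labels give no age for the sorted MuSCs and no sex, and do not say whether 2 libraries of a group came from separate animals, so the tests measure the spread between libraries. Conditions were compared over UMI sums of each library's myogenic cells, called from markers such as Pax7, Myf5, Myod1 and Des, which gave 4381 myoblasts, 1153 and 1552 injured cells, 1316 and 1128 homeostatic cells, and 70 and 95 cells of total muscle. Levels are CPM, UMI counts scaled to a common library total, with edgeR's trimmed-mean (TMM) scaling, and "higher" or "lower" marks genes with a Benjamini-Hochberg adjusted p under 0.05 over all genes in edgeR's quasi-likelihood test.

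The libraries differed in depth and in other ways before any comparison. Cells that passed the filters held a median of 24818 UMIs in the myoblasts, 7299.5 and 3139 in the injured libraries, 2290.5 and 2349 in the homeostatic and 3054 and 3202.5 in total muscle. The injured libraries shared 251 cell barcodes, 19.98% and 11.3% of their cells, against at most 16 for any other pair of libraries. They also stood apart at the level of single genes: mt-Atp6 had 10893 and 10435 CPM in the injured libraries and at most 247 in the others, the pseudogene Rps12-ps3 had 1521 and 1589 CPM and at most 0.343 elsewhere, and 7 of the 8 genes found at 50 CPM or more in both injured libraries and below 1 in all others have a near-identical copy elsewhere in the transcript annotation. By the same mark, which also counts overlapping genes, 42.1% of all 2478 genes at 50 CPM or more in both injured libraries have a copy. No member of the respiratory chain set was among the 8. Xist, the transcript of the inactive X chromosome, had 863 and 1151 CPM in the injured libraries and 752 and 697 in total muscle, and at most 0.686 in the homeostatic libraries and the myoblasts. The nuclear RNA Malat1 had 12366 CPM in the myoblasts, 4459 and 5485 in the injured, 86489 and 85270 in the homeostatic and 44670 and 46792 in the total muscle libraries. The part of these differences in the results that follow was not tested, except where values are given. Because near-identical copies can take or give reads in 3′ counting, 39 members with such a copy or an overlapping gene were marked, and counts are given with and without them.

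Respiratory chain transcripts took up a larger share of the captured RNA in injured MuSCs and in myoblasts than in resting MuSCs. The 94 members made up 4.20% of the UMIs of myogenic cells in the myoblasts, 4.39% and 4.15% in the injured libraries, 1.39% and 1.44% in the homeostatic libraries and 1.48% and 1.49% in total muscle. Complex I subunits took 1.27% in the myoblasts, 1.18% and 1.11% in the injured, 0.373% and 0.382% in the homeostatic and 0.334% and 0.345% in the total muscle cells. Complex IV, the oxidase, held 1.09% in the myoblasts, 1.19% and 1.13% in the injured, 0.414% and 0.426% in the homeostatic and 0.492% and 0.489% in the total muscle cells. Homeostatic MuSCs and the myogenic cells of total muscle lay close together, and the injured libraries and the myoblasts lay above both without overlap.

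On the TMM scale the members summed to 31364 CPM in the myoblasts, 51794 ± 2997 CPM in injured MuSCs, 13927 ± 338 in homeostatic MuSCs and 14389 ± 113 in total muscle (SD, n = 2 libraries except for the single myoblast library). The sum in injured cells was thus 3.72 times that in homeostatic cells. Taken by complex, this ratio was 3.73 for complex I, 3.09 for complex II, 4.01 for complex III, 3.41 for complex IV, 4.00 for complex V and 4.72 for Cycs, while the Ndufaf assembly factors differed by 1.75-fold. In each of these groups both injured libraries lay above both homeostatic ones.

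**Figure D1:**
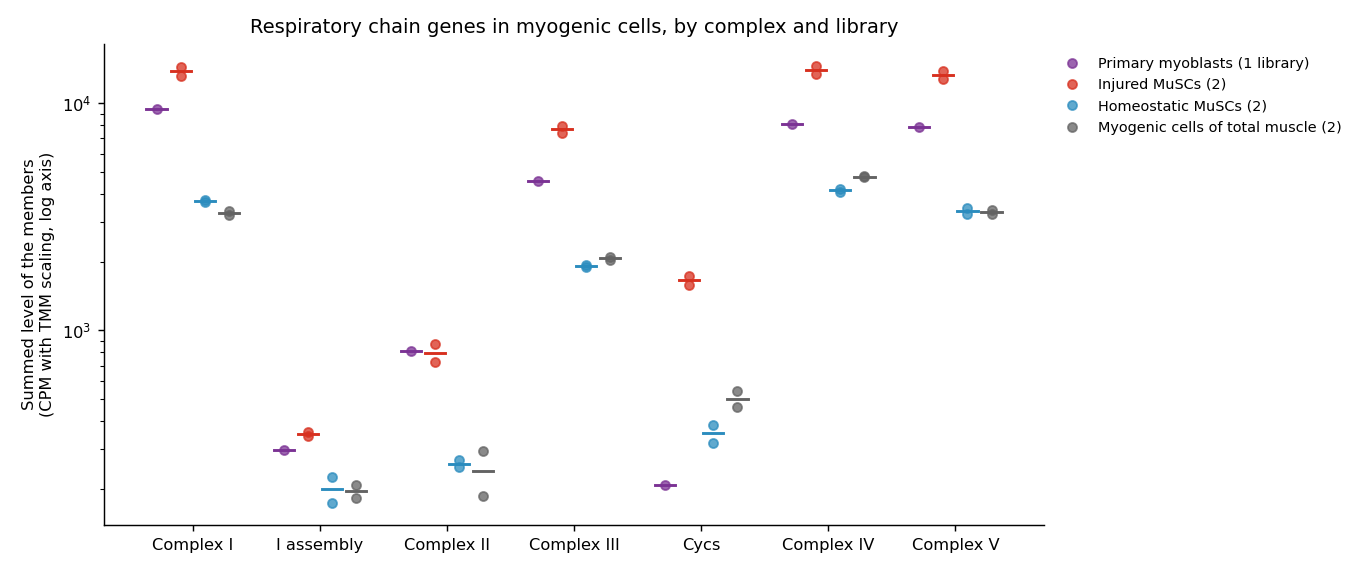
Summed level of the members of each complex in myogenic cells, in CPM on a log axis with TMM scaling, with 1 point per library, a bar at each group's mean, and the groups in the order primary myoblasts, injured MuSCs, homeostatic MuSCs and myogenic cells of total muscle. Injured libraries are highest for every complex but complex II, where the myoblast library (814 CPM) lies between the injured ones (868 and 728 CPM), and for Cycs the myoblast library (209 CPM) is the lowest of all.

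In injured against homeostatic MuSCs, 78 of the 88 members that could be tested were higher and none was lower, with a median log2 change of 1.84. Among all 10412 genes tested, 38.0% were higher and 37.1% lower, and the median was 0.02. Members without a near-identical copy gave 41 higher of 49, with a median of 1.69, where 35.5% of all such genes were higher and 39.4% lower, and taking out the shared barcodes left 78 higher and none lower. At an unadjusted p under 0.05 edgeR also had 0 members lower, as had DESeq2 with adjustment (0 lower, 77 higher).

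For complex I, 35 of 37 subunits tested were higher, with a median log2 change of 2.02. Ndufa3, an accessory subunit of the membrane arm, had 537 and 476 CPM in injured libraries and 54.5 and 52.5 CPM in homeostatic libraries, a log2 change of 3.21 ± 0.15 (SE; adjusted p = 2.59e-11, edgeR). Ndufs7, which carries the last iron-sulphur cluster before ubiquinone, had 373 and 350.3 CPM in injured against 50.9 and 57.3 CPM in homeostatic libraries (log2 2.72 ± 0.15). The injured values of both genes lay several-fold above the homeostatic ones, with little spread within a group. The exceptions were a pair of large catalytic subunits. Ndufs1, the largest iron-sulphur subunit, had 34.3 and 25.8 CPM in injured and 34.1 and 32.9 CPM in homeostatic libraries, and Ndufv1, which binds NADH and flavin, had 90.6 and 72.2 CPM against 77.4 and 67.9 CPM. Neither passed the test, with log2 changes of -0.18 and 0.14. Of the Ndufaf assembly factors 5 of 7 were higher. Ndufaf6 had 34.3 and 28.4 CPM in injured against 8.23 and 10.97 CPM in homeostatic libraries (log2 1.69 ± 0.24, adjusted p = 9.08e-06), and Ndufaf2, which has near-identical copies and an overlapping gene, 117 and 112 CPM against 41.4 and 49.7 CPM (1.31 ± 0.16), while Ndufaf1 and Ndufaf4 were not called.

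Complex II, which is wholly nuclear-encoded and also works in the tricarboxylic acid cycle, split by subunit. Sdhd, a membrane anchor, had 269 and 212 CPM in injured libraries and 31.1 and 39.1 CPM in homeostatic libraries (log2 2.75 ± 0.18, adjusted p = 7.86e-10). Sdhb, the iron-sulphur subunit, had 405 and 341 CPM against 98.7 and 104 CPM (1.85 ± 0.15), and Sdhc, the other anchor, 115 and 109 CPM against 32.9 and 40.1 CPM (1.59 ± 0.17). For these subunits the groups did not overlap. Sdha, the flavoprotein that oxidises succinate, had 79.3 and 65.3 CPM in injured and 86.8 and 84.4 CPM in homeostatic libraries, a log2 change of -0.27 that did not pass the test (adjusted p = 0.131). None of the complex II genes has a near-identical copy.

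In complex III, 8 of 9 genes were higher (median 1.61). Some small subunits were among the members with the largest changes: Uqcrq had 1633 and 1668 CPM in injured against 233 and 207 CPM in homeostatic libraries (log2 2.88 ± 0.14), and Uqcr10 had 1506 and 1489.8 CPM against 212 and 206 CPM (2.81 ± 0.14). Uqcr11, which has near-identical copies, showed 1826 and 1723 CPM against 172 and 164 CPM (3.37 ± 0.14). Not all small subunits changed as much. The 4 genes of the complex marked for copies, Uqcr11, Uqcrb, Uqcrh and the core protein Uqcrc2, had a median of 0.80, against 1.78 for those without. Cyc1, the cytochrome that hands electrons to cytochrome c, had 472 and 398 CPM in injured and 118 and 131 CPM in homeostatic libraries (1.78 ± 0.15). The core protein Uqcrc2 was the exception, with 103 and 72.2 CPM against 70.1 and 81.6 CPM (log2 0.19, not called). Cycs, whose transcript has near-identical pseudogene copies, had 1744 and 1579.5 CPM in injured and 319 and 385 CPM in homeostatic libraries (2.21 ± 0.14, adjusted p = 8.42e-10).

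Complex IV gave 12 higher of 13 tested (median 1.75), and the ubiquitous isoforms kept the larger UMI share of each pair. Cox6b1 had 1517 and 1240.2 CPM in injured against 241 and 269 CPM in homeostatic libraries (log2 2.41 ± 0.15), and Cox8a, the form of the small subunit outside fibres, 2478 and 2520.3 CPM against 599 and 584 CPM (2.05 ± 0.13). Cox7b, a member with a copy, had 611 and 518 CPM against 78.6 and 95.3 CPM (2.67 ± 0.16). Cox7a2, the ubiquitous form of its subunit, had 1116 and 1026 CPM against 320.0 and 371 CPM (1.61 ± 0.14), and the related assembly factor Cox7a2l had 356 and 335 CPM against 176 and 109 CPM (1.24 ± 0.18). Cox6a1, with a copy, rose by 1.33 ± 0.14 on the log2 scale. Cox4i1, which is needed early in assembly, showed one of the smaller changes of the complex, with 1800.2 and 1685 CPM against 895 and 898 CPM (0.93 ± 0.13). The fibre isoform Cox7a1 was higher but stayed low, at 19.8 and 20.6 CPM in injured and 2.74 and 4.11 CPM in homeostatic libraries (2.53 ± 0.30). The other fibre forms, Cox6a2 and Cox8b, were below 4 CPM in both groups and were not tested, nor were Cox4i2, Ndufa4l2 and the almost unread Cox7b2 and Cox8c. Cox6b2, the testis form, had 4.09 and 2.58 CPM against 3.35 and 7.2 CPM and was not called. Ndufa4, counted by its name under complex I, had 1257 and 1117 CPM in injured against 170.0 and 201 CPM in homeostatic libraries (2.65 ± 0.15).

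For complex V, 14 of 17 genes were higher (median 1.93). The 3 genes of the membrane ring, Atp5g1, Atp5g2 and Atp5g3, encode the same mature protein. Atp5g3, which has no near-identical copy, had 783 and 814 CPM in injured and 184 and 217 CPM in homeostatic libraries (log2 1.97 ± 0.14). Atp5g1, which has copies, had 1551 and 1692 CPM against 192 and 256 CPM (2.83 ± 0.16). Atp5g2, also with copies, stood out with 996 and 983 CPM in injured against 9.75 and 17.5 CPM in homeostatic libraries (6.17 ± 0.21) and 14.6 CPM in the myoblasts. Atp5k, subunit e of the membrane part, had 1482 and 1339 CPM against 89.0 and 108 CPM (3.81 ± 0.16) and Atp5j, a stalk subunit, 1051 and 967 CPM against 236 and 218 CPM (2.13 ± 0.14). Catalytic subunits had smaller log2 changes. Atp5b, the beta subunit, which has a copy, had 859 and 663 CPM against 635 and 659.7 CPM (log2 0.21, not called). Atp5a1, the alpha subunit, which has no copy, was called with 485 and 424 CPM against 315 and 310.3 CPM (0.51 ± 0.14, adjusted p = 0.0027, edgeR). The remaining uncalled members were Atp5s and Atp5sl.

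**Figure D2:**
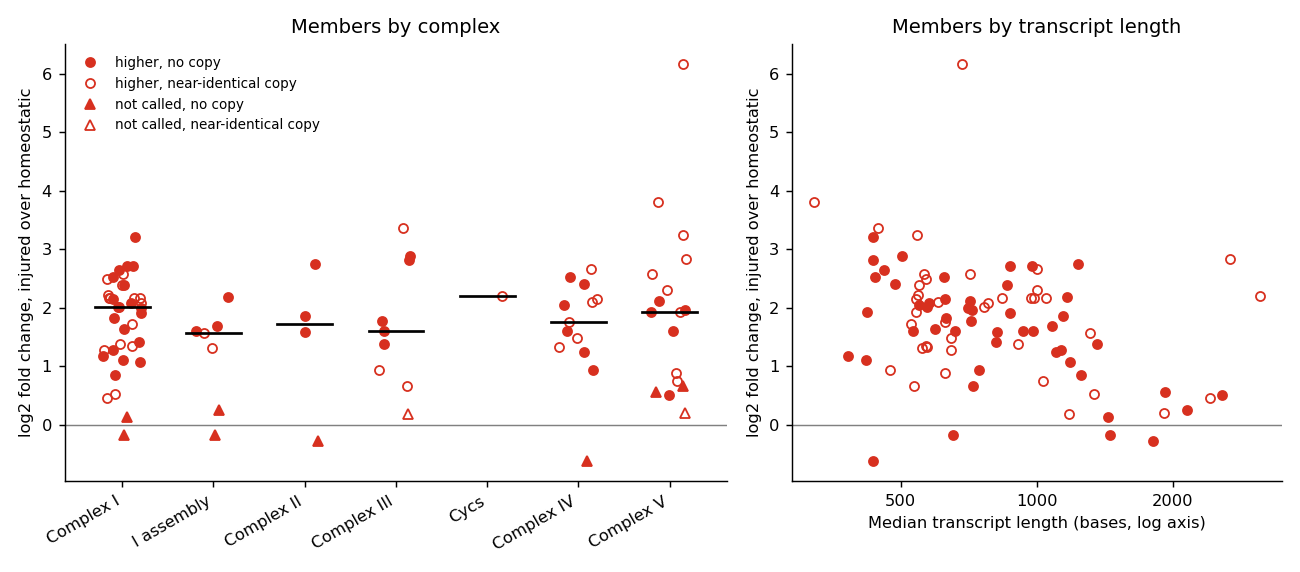
Log2 fold change of each tested member in injured over homeostatic MuSCs, by complex with bars at the medians (left) and against median transcript length in bases on a log axis (right), with open symbols for members with a near-identical copy or overlapping gene and triangles (left) for members not called. Points run from Cox6b2 at -0.62 to Atp5g2 at 6.17, and shorter transcripts tend to lie higher than longer ones.

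The change with injury was smaller among members with longer transcripts. Members with annotated transcripts under 500 bases had a median log2 change of 2.47 (12 members), those of 500 up to 1000 bases 1.98 (50), those of 1000 up to 2000 bases 1.24 (21) and those of 2000 bases or more 0.51 (5). Across the 88 members Spearman's rho between length and change was -0.335, and across the 49 without a copy -0.435. The 9980 other genes with a length showed a weaker relation in the same direction (rho -0.204), with medians of 1.17, 0.57, 0.25 and -0.32 for the same length classes. Genes share libraries and depth and are not independent, so these are descriptions without a test, and the part of length in the changes was not tested. In every length class the median of the members lay above that of the other genes.

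A second description bears on copies. Of 80 members at 20 CPM or more in both injured libraries, 16 were there at least 2 times their level in every other library, and 13 of those 16 have a near-identical copy or overlapping gene, against 38 of all 80. Atp5g2 led at 56.2-fold, followed by Atp5l at 6.76-fold, Ndufs5 at 5.36-fold, Ndufb4 at 4.18-fold and Atp5k at 3.93-fold, and all of these have copies or an overlapping gene. The part of the copies in these levels was not tested, and comparisons with injured cells are uncertain for these members.

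Marker lists of other cell types differed between the groups in both directions. Summed markers of tenocytes reached 93.6 and 133 CPM in injured and 15.5 and 16.1 CPM in homeostatic libraries, with 7 and 6 of 12 markers at 0 in the injured and 4 and 4 in the homeostatic libraries. Neutrophil markers gave 12.4 and 13.1 CPM against 1.52 and 2.06 CPM, with 8 and 7 of 12 at 0 against 9 and 10. The list for mature fibres, whose respiratory chain levels are high, summed to 167 and 216 CPM in injured and 119 and 97.4 CPM in homeostatic cells. For these lists both injured libraries lay above both homeostatic ones. The reverse held for fibro-adipogenic cells, with 3.81 and 5.37 CPM in injured and 243 and 232 CPM in homeostatic libraries, mural cells, with 33.03 and 38.7 CPM against 309.6 and 278 CPM, glial cells, with 14.3 and 16.5 CPM against 63.7 and 52.8 CPM, and erythroid cells, with 3.95 and 2.79 CPM against 304 and 74.8 CPM. The macrophage list gave 11.6 and 5.58 CPM in injured and 6.70 and 1.71 CPM in homeostatic cells, which overlapped, as did the endothelial, B cell and T or NK lists. The myogenic list itself summed to 1590 and 1997 CPM against 5828 and 6238 CPM. Their part in the change of the members was not tested.

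Few members differed between sorted and unsorted resting cells at the depth of these libraries. Homeostatic sorted MuSCs were compared with the MuSCs of total muscle, which were found by their markers among all live cells. Of 84 members tested, 2 were higher and 4 lower in the sorted cells, against 3.24% and 3.26% of 7613 genes, and their median log2 difference was -0.04 (all genes 0.05). Ndufb9, an accessory subunit of complex I, had 147 and 148 CPM in homeostatic and 75.6 and 78.4 CPM in total muscle cells (0.84 ± 0.23, adjusted p = 0.0352). Ndufb4, with copies, had 75.6 and 63.4 CPM against 23.9 and 29.1 CPM (1.28 ± 0.34, adjusted p = 0.034). Cox7a2l was lower, with 176 and 109 CPM in homeostatic and 303 and 273 CPM in total muscle cells (-1.10 ± 0.22, adjusted p = 0.0049), as were Cycs, with 319 and 385 CPM against 462 and 540.4 CPM (-0.61 ± 0.15), and Uqcrh, the hinge protein of complex III, with 521 and 460.2 CPM against 641 and 679.9 CPM (-0.53 ± 0.14). Cox8b, the fibre isoform, was called lower at 1.52 and 0.686 CPM against 15.9 and 26.1 CPM, and the fibre marker list summed to 119 and 97.4 CPM against 159 and 171 CPM. Endothelial markers summed to 15.2 and 34.98 CPM in homeostatic and 247 and 229.5 CPM in total muscle cells, fibro-adipogenic markers to 243 and 232 CPM against 390.2 and 476 CPM, tenocyte markers to 15.5 and 16.1 CPM against 119 and 92.97 CPM, and mural markers to 309.6 and 278 CPM against 139 and 159.8 CPM. The part of these lists in the calls was not tested. None of these 6 calls held in all 17 settings tried. With all cells in place of the gated ones Cycs and Uqcrh changed sign (0.51 and 0.21). That setting takes in every cell type of total muscle, so it does not compare MuSCs alone.

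In the myoblasts the summed level of the members was 0.606 times that in injured MuSCs with TMM scaling and 0.983 times with library size only, and single members were called in both directions. The comparison has 1 myoblast library, which is assumed to vary like the others, and both myoblast comparisons share libraries with the injury comparison. Against injured MuSCs, 15 of 91 members were higher and 47 lower in the myoblasts, against 33.8% and 26.0% of 12188 genes, with a median of -0.44 (all genes 0.19). The direction of the median depended on scaling: with library size only in place of TMM, 37 members were higher and 17 lower and the median was 0.26, while that of all genes was 0.89. Relative to the median of all genes, the members' median lay 0.63 lower under both scalings. By complex, 4 higher and 23 lower of 37 were counted for complex I, 3 and 1 of 7 for its assembly factors, 2 and 1 of 4 for complex II, 1 and 3 of 9 for complex III, 3 and 10 of 16 for complex IV and 2 and 8 of 17 for complex V. Among the 52 members without copies, 11 were higher and 23 lower, against 36.4% and 22.4% of all such genes.

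**Figure D3:**
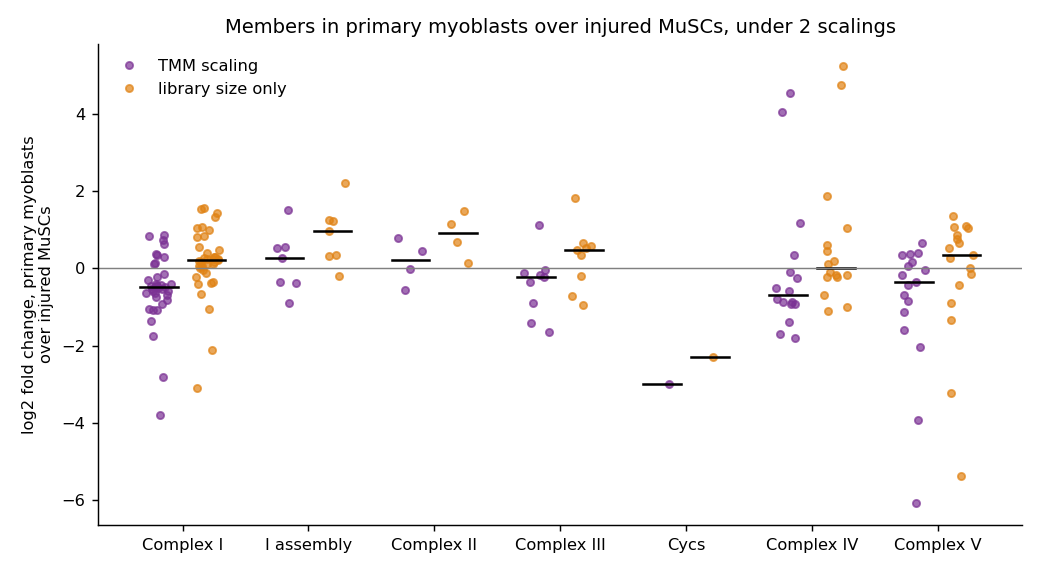
Log2 change of each member in the primary myoblasts against injured MuSCs by complex, with TMM scaling (left of each pair) and with library size only (right), and bars at the medians. Points lie higher with library size only, so that members near the zero line change sign, while Cycs at -2.99 under TMM stays below it.

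In every setting tried, 17 members were lower and 8 higher in the myoblasts. Cycs had 209 CPM in the myoblasts and 1744 and 1579.5 CPM in injured MuSCs (log2 -2.99 ± 0.21, adjusted p = 6.92e-12). Without copies, Ndufa3 had 150.2 CPM against 537 and 476 CPM (-1.75 ± 0.19), Uqcr10 562 CPM against 1506 and 1489.8 CPM (-1.41 ± 0.18), and Atp5e, the epsilon subunit of the ATP synthase, 332 CPM against 1062 and 961 CPM (-1.61 ± 0.19). Members with copies that were lower included Atp5g2 at 14.6 CPM against 996 and 983 CPM, Atp5l at 101 CPM against 1596 and 1473 CPM, Ndufb4 at 22.9 CPM against 325 and 316 CPM, Ndufs5 at 57.6 CPM against 424 and 384 CPM and Cox7c at 603 CPM against 1990.1 and 1915 CPM. Those higher in every setting included Sdha, Ndufs1, Uqcrc2 and Atp5b, which had not been called with injury. Sdha had 126 CPM in the myoblasts and 79.3 and 65.3 CPM in injured MuSCs (0.80 ± 0.18, adjusted p = 0.000528), Ndufs1 55.1 CPM against 34.3 and 25.8 CPM (0.86 ± 0.20), Uqcrc2 191 CPM against 103 and 72.2 CPM (1.12 ± 0.19) and Atp5b 1203 CPM against 859 and 663 CPM (0.66 ± 0.18). Of these genes, Uqcrc2 and Atp5b are marked for a copy or an overlapping gene, and Sdha and Ndufs1 are not. Transcript length was again related to the change, with the opposite sign (rho 0.381 over 91 members, 0.038 over 11540 other genes).

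Within complex II the anchors diverged, with Sdhc higher in the myoblasts at 153 CPM against 115 and 109 CPM in injured cells (0.45 ± 0.18) and Sdhd lower at 163 CPM against 269 and 212 CPM (-0.56 ± 0.19). For Sdhb, 372 CPM stood against 405 and 341 CPM, and for Cyc1 400.5 CPM against 472 and 398 CPM, and neither was called. Sdhd changed sign without TMM (0.14), as did Cox7a2 (0.11), Cox7b (0.20) and Ndufa4 (0.25). In complex IV, Cox8a had 1363 CPM in the myoblasts and 2478 and 2520.3 CPM in injured cells (-0.87 ± 0.17), and Cox7a2l 183 CPM against 356 and 335 CPM (-0.92 ± 0.22). The fibre isoforms Cox6a2, at 34.5 CPM in the myoblasts and 0.988 and 3.65 CPM in injured cells, and Cox8b, at 18.1 CPM against 0.706 and 0.859 CPM, were called higher in every setting. The third fibre isoform, Cox7a1, was lower, at 5.74 CPM against 19.8 and 20.6 CPM (-1.81 ± 0.25). The fibre marker list summed to 288 CPM in the myoblasts with none of its 9 genes at 0, against 167 and 216 CPM in injured cells with 3 and 2 at 0. The mural list summed to 742 CPM in the myoblasts, against 33.03 and 38.7 CPM in injured cells, and the tenocyte list to 41.5 CPM against 93.6 and 133 CPM. The part of these lists in the levels of the members was not tested.

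Set against homeostatic MuSCs, 77 of 91 members were higher and 3 lower in the myoblasts, against 39.4% and 32.4% of all genes, with a median of 1.29 (all genes 0.18). All 3 lower members, Ndufb4 (-1.60 ± 0.20), Cycs (-0.75 ± 0.18) and Atp5l (-0.65 ± 0.20), have copies or an overlapping gene, and among the 52 members without, 45 were higher and none was lower, against 40.6% and 31.9% of all such genes. The count of higher members was 33 of 37 in complex I, 6 of 7 for its assembly factors, 4 of 4 in complex II, 8 of 9 in complex III, 12 of 16 in complex IV and 14 of 17 in complex V, and 68 members were higher in every setting. Ndufa8, an accessory subunit of complex I, had 259 CPM in the myoblasts and 40.2 and 38.1 CPM in homeostatic MuSCs (log2 2.73 ± 0.18, adjusted p = 2.38e-12). Sdhd had 163 CPM against 31.1 and 39.1 CPM (2.22 ± 0.20), Sdhc 153 CPM against 32.9 and 40.1 CPM (2.07 ± 0.19), and Sdhb 372 CPM against 98.7 and 104 CPM (1.88 ± 0.18). In the other complexes the same held for Uqcrq, with 894 CPM against 233 and 207 CPM (2.02 ± 0.17), Cox6b1, with 799 CPM against 241 and 269 CPM (1.65 ± 0.17), and Atp5c1, the gamma subunit with copies, with 483 CPM against 97.8 and 97.7 CPM (2.305 ± 0.18). Sdha, which was not called with injury, was higher here, at 126 CPM against 86.8 and 84.4 CPM (0.56 ± 0.18, adjusted p = 0.00901).

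The rest of the pathway was read from lists of genes around the chain. With injury, 33 of 38 tested assembly factors outside the Nduf symbols were higher and 2 lower, against 38.0% and 37.1% of all genes, with a median log2 change of 1.74, and without copies 22 and 1 of 24 (1.99). Coa5, an assembly factor of complex IV, had 103 and 109.5 CPM in injured against 2.74 and 2.06 CPM in homeostatic libraries (5.41 ± 0.25). Sdhaf4, an assembly factor of complex II, had 54.6 and 59.3 CPM against 0.305 and 0.686 CPM. Surf1 of complex IV assembly fell by 0.63 on the log2 scale. Of 17 tricarboxylic acid cycle genes, 11 were higher and 1 lower (median 0.50), and without copies 9 and 0 of 14 (0.50). Cs, the citrate synthase, had 93.6 and 83.8 CPM in injured and 15.8 and 16.8 CPM in homeostatic libraries (2.42 ± 0.19), and Dld, which serves several dehydrogenases, fell by 0.45. Of 10 tested regulators of mitochondrial biogenesis 3 were higher and 4 lower (median -0.17), shares close to those of all genes, and without copies 3 and 1 of 7, where the median had the other sign (0.45). The coactivator Ppargc1b had 9.88 and 11.6 CPM against 1.22 and 0.686 CPM (3.40 ± 0.45). The nuclear receptor Esrra had 17.1 and 21.05 CPM against 1.83 and 3.77 CPM (2.74 ± 0.34). By contrast, Pprc1 fell by 2.172 and Polg, the mitochondrial DNA polymerase, by 2.32. Among carriers and inner membrane proteins 13 of 17 were higher and 2 lower, and without copies 6 and 1 of 8, with Atpif1, the inhibitor of the ATP synthase, at 2.61 and Phb, a prohibitin, at 2.27.

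The mitochondrially encoded subunits did not follow the nuclear ones in every comparison. With injury 9 of 13 were higher and 1 lower, against 38.0% and 37.1% of all genes. Of the 6 without copies, though, 3 were higher and 0 lower, against 35.5% and 39.4% of all such genes. For mt-Cytb and mt-Nd1 the log2 changes were 0.03 and 0.64. In sorted homeostatic against total muscle MuSCs 9 of 11 were higher and none lower, against 3.24% and 3.26% of all genes. The nuclear members gave 2 higher and 4 lower of 84 there. In the myoblasts 12 of 13 were lower and none higher against either MuSC group, where 77 nuclear members were higher than in homeostatic cells. The size of this difference depended on copies. Against injured MuSCs the median log2 change in the myoblasts was -3.43 over all 13 and -1.09 over the 6 without copies. Against homeostatic MuSCs it was -1.29 and -1.01. Cells were kept only with at most 10% mitochondrial UMIs. Against injured MuSCs the myoblasts had 9 tricarboxylic acid cycle genes higher and 3 lower of 17, 5 biogenesis regulators higher and 3 lower of 12, and 3 carriers higher and 5 lower of 17, where 33.8% of all genes were higher and 26.0% lower. Against homeostatic MuSCs these counts were 14 and 0, 5 and 7, and 13 and 2, and 30 assembly factors of 38 were higher and 1 lower, where 39.4% of all genes were higher and 32.4% lower. The median of the regulators against homeostatic MuSCs was -0.53, and without copies, with 4 higher and 4 lower of 8, it had the other sign (0.68).

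Within total muscle the largest differences of the nuclear-encoded members lay between muscle fibres and all other cells. Cells of 10 types were called from marker genes, with 38 and 60 barcodes in the 2 libraries whose contractile genes gave at least 2% of their UMIs and are called myofibre cells here. Whole fibres are long syncytia, so such barcodes hold fibre RNA in a form that the labels do not describe. They held almost no mitochondrially encoded RNA, with a median of 0.007% and 0.036% of UMIs in the 2 libraries. In fibro-adipogenic cells, the lowest of the 9 other types, this median was 0.505% and 0.501%. The part of this difference in the levels of the members was not tested. The members summed to 119487 and 151955 CPM in myofibre cells, a mean of 135721 ± 22958 (SD, n = 2). In the 9 other types the sums ran from 13074 to 19403 CPM, with myogenic cells at 14894 and 15367 CPM, endothelial cells at 13797 and 14186 CPM and macrophages or monocytes at 19403 and 17040 CPM. The ratio of myofibre cells to another type was between 7.45 and 10.1 for all members, 7.997 and 12.6 for complex I, 8.09 and 12.4 for complex II, 7.45 and 10.8 for complex III, 6.47 and 9.84 for complex IV and 7.24 and 10.7 for complex V.

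**Figure D4:**
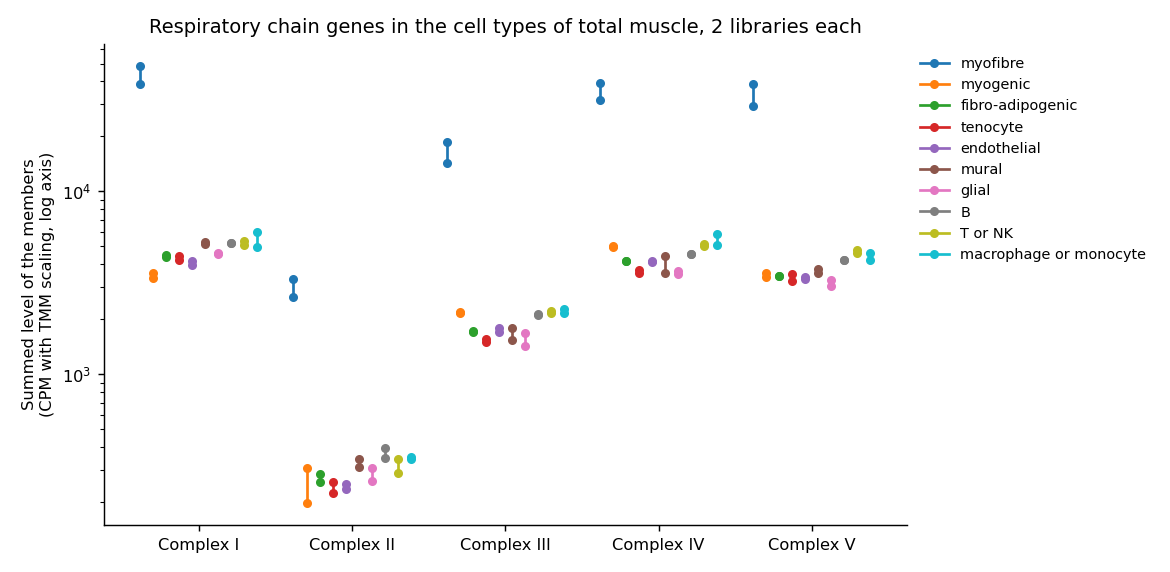
Summed level of the members of complexes I to V by cell type of total muscle, in CPM with TMM scaling on a log axis, with 1 point per library joined by a line. Myofibre cells stand above the other 9 types in every complex, at 38590 and 48633 CPM for complex I and at 2662 and 3332 CPM for complex II.

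Of 90 members tested, 89 differed between cell types, as did 91.4% of 8717 genes, and Ndufaf7 was the exception. In myofibre cells 83 members were higher than in the other types and 2 lower, against 18.0% and 16.1% of genes, with a median log2 difference of 3.29. The counts were 37 of 38 for complex I, 5 of 7 for its assembly factors, 4 of 4 for complex II, 9 of 9 for complex III, 12 of 15 for complex IV and 15 of 16 for complex V. Sdhb had 1384 and 1451 CPM in myofibre cells and between 57.2 and 153 CPM in the other types (3.88 ± 0.15), and Sdha 391 and 533 CPM against 61.7 to 154 CPM (2.37 ± 0.21). Sdhc (3.81 ± 0.22) and Sdhd (3.38 ± 0.22) were higher as well, so that all of complex II was. Cycs had 2070.5 and 2821 CPM in myofibre cells and 481 and 574 CPM in myogenic cells, the next in order, with 174 to 389 CPM elsewhere (3.23 ± 0.14). Cyc1 was at 856 and 1103 CPM (3.37 ± 0.16), Ndufa4 at 3011 and 3835 CPM (3.76 ± 0.14) and Cox7b, with a copy, at 1838 and 2687 CPM (3.78 ± 0.13). Of the membrane ring genes, Atp5g1 was at 3687 and 5397 CPM in myofibre cells (4.69 ± 0.13), Atp5g3 at 1119.8 and 1399 CPM (2.94 ± 0.14) and Atp5g2 at 52.8 and 163 CPM (2.98 ± 0.46).

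The 2 lower members were the ubiquitous partners of fibre isoforms, and the swap could be read subunit by subunit. Cox6a2 had 4352 and 5456 CPM in myofibre cells and 0 to 34.3 CPM in the other types (9.69 ± 0.15), whereas Cox6a1, with a copy, had 116 and 126 CPM in myofibre cells and 225 to 593 CPM elsewhere (-1.73 ± 0.30, adjusted p = 7.31e-07). Cox8b had 3412 and 4516 CPM in myofibre cells and 0 to 27.8 CPM elsewhere (8.82 ± 0.14), and Cox8a 222 and 207 CPM against 358 to 777 CPM (-1.30 ± 0.25, adjusted p = 1.15e-05). For the subunit 7a the swap was partial: Cox7a1 had 2166 and 2421 CPM in myofibre cells and 0 to 31.1 CPM elsewhere (9.34 ± 0.19), and Cox7a2 was itself higher there, at 1215 and 1414 CPM against 207 to 457 CPM (2.03 ± 0.16). As shares of the UMIs of each pair in myofibre cells, Cox6a2 made up 97.4% and 97.7%, Cox8b 93.9% and 95.6%, and Cox7a1 64.1% and 63.1%, with exact 95% binomial intervals of 58.5 to 69.3% and 58.8 to 67.3% for Cox7a1 that cover counting error only. Cox4i1 was higher in myofibre cells, at 2493 and 3065 CPM (1.92 ± 0.14), and Cox4i2 was at 10.6 and 0 CPM. The fibre marker list summed to a mean of 122756 CPM in myofibre cells and to 161 to 277 CPM in each other type. The part of free fibre RNA in the low levels of Cox6a2 and Cox8b in those types was not tested.

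**Figure D5:**
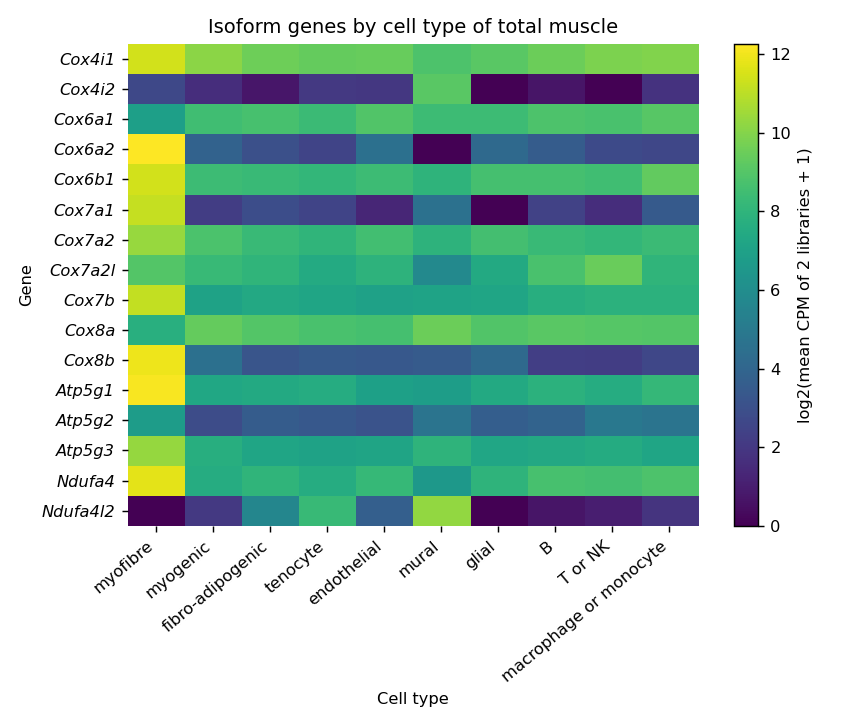
Level of isoform genes (rows) by cell type of total muscle (columns), as the colour of log2 of the mean CPM of 2 libraries plus 1. Cox6a2, Cox7a1 and Cox8b are bright in myofibre cells, where Cox7a1 has 2166 and 2421 CPM, and dark in the other types, and Cox4i2 and Ndufa4l2 are highest in mural cells.

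Promoters were read for isoforms whose levels set fibres apart and for Sdhd, the complex II gene that matched the most different motifs. RefSeq sequences for GRCm38.p6 were found for 74 of the 94 members and cover 250 bases before to 50 bases from the start of transcription on. The fibre isoform Cox6a2 was not among them, so its partner Cox6a1 is shown without it. In capitals are matches on either strand to NRF1 (CGCNTGCGC), ETS (ACCGGAAG), ERR (TCAAGGTCA), MEF2 (CTANNNNTA) and the E-box CAGCTG. Cox7a1 lies at chr7:30183921-30184220 on the plus strand, Cox8b at chr7:140900397-140900696, Cox6a1 at chr5:115348909-115349208, Cox8a at chr19:7217567-7217866 and Sdhd at chr9:50603800-50604099, all on the minus strand, and each sequence is given 5′ to 3′ on the gene's strand.
Cox7a1: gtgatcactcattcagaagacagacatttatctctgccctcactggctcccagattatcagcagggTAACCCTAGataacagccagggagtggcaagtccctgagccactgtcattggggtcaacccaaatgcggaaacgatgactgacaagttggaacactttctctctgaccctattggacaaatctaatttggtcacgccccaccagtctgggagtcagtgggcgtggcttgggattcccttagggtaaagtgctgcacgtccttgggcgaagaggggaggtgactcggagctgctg
Cox8b: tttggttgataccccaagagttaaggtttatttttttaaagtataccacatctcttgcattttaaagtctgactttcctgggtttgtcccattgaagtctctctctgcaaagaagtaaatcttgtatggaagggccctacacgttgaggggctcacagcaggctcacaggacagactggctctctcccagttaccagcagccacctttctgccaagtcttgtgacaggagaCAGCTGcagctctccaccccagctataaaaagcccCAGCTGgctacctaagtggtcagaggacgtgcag
Cox6a1: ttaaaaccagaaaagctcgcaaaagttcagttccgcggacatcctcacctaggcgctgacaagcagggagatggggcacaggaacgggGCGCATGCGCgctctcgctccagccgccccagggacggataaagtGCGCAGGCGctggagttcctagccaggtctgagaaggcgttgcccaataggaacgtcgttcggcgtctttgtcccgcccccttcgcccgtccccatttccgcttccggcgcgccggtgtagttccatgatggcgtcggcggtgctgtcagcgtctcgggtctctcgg
Cox8a: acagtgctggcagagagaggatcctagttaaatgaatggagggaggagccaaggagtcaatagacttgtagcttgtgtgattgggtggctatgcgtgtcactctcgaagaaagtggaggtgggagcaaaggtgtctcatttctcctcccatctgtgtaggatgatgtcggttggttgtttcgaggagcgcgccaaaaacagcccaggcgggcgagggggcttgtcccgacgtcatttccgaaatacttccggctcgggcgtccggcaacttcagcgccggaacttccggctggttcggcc
Sdhd: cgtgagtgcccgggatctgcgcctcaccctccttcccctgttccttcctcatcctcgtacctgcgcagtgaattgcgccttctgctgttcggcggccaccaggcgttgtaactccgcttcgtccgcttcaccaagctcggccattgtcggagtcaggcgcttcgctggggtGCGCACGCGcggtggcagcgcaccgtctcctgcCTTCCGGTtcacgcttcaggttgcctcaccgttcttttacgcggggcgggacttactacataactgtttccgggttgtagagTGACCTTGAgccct
Counting the first transcribed base as 1 and the base before it as -1, the Cox7a1 sequence holds 1 MEF2 pattern match, starting at -184. The N bases of this loose pattern could be any letter, whereas MEF2 sites hold A or T there. In Cox7a1 they read GGGT on the opposite strand, so by its letters this match is not a MEF2 site. The Cox8b sequence holds E-box matches at -19 and 17. A match to the loose pattern does not set Cox7a1 apart from its ubiquitous partner, since Cox7a2, not shown, also holds 1. Cox5b, Cox6b2 and Cox7c of complex IV hold matches to this pattern as well. Cox6a1, the ubiquitous form of subunit 6a, holds NRF1 matches at -162 and -161, which overlap, and at -117, and Cox8a holds none of the motifs. Sdhd holds NRF1 at -79, ETS at -46 and ERR at 37. Sdha, which was not called with injury and is not shown, holds 3 NRF1 matches. Across the 74 members, 23 promoters (31.1%) hold an NRF1 match against 7.03% of the promoters of all 27025 genes in the table, 7 (9.46%) an ETS match against 2.60%, 7 (9.46%) a YY1 match (AAGATGGCG) against 1.64%, and 2 (2.70%), Atp5g3 and Sdhd, an ERR match against 0.466%. Matches to the loose MEF2 pattern and to the E-box were found in 17.6% and 8.11% of members against 23.5% and 18.3% of all genes. A match describes letters in this window and not a bound site.

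Mural cells, the pericytes and smooth muscle of vessels, carried another isoform set. Cox4i2, a form of subunit 4 known from oxygen-sensing cells, had 569 and 549 CPM in mural cells and at most 10.6 CPM elsewhere (8.86 ± 0.44, adjusted p = 7.32e-32). It made up 60.3% and 50.5% of the UMIs of Cox4i1 and Cox4i2 together, with exact 95% intervals of 47.2 to 72.4% and 40.5 to 60.4%. Ndufa4l2, a relative of Ndufa4 known as a hypoxia-induced gene, had 1123 and 1316 CPM in mural cells (8.51 ± 0.29), 327 and 289 CPM in tenocytes (6.29 ± 0.27), 51.9 and 45.3 CPM in fibro-adipogenic cells (3.33 ± 0.40) and at most 12.4 CPM in any other type. Its share of the pair with Ndufa4 in mural cells was 89.3% and 96.2%. Ndufa4 itself was lower in mural cells than in the other types, at 135 and 51.8 CPM (-2.14 ± 0.38), but with clusters in place of the marker gate it was not lower (0.84). Cox7a2l was lowest in mural cells at 44.9 and 62.2 CPM (-2.46 ± 0.41) and highest in T or NK cells at 695 and 717 CPM (1.62 ± 0.15), above myofibre cells at 486 and 518 CPM. Mural cells numbered 27 and 37.

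Myogenic cells of total muscle, mostly resting, had few members above the other types. Against the 9 other types 5 members were higher and 41 lower, against 21.4% and 9.40% of genes, a comparison that fibre levels weigh down. With myofibre cells left out, an alternative added after seeing the data, 13 were higher and 19 lower, against 19.6% and 10.2%. The lower ones were mostly in complex I, with 14 of 38 subunits lower and 2 higher, and in complex V, with 4 lower and 1 higher of 16, whereas in complexes III and IV 3 of 9 and 4 of 15 were higher and none lower. Ndufa8 had 20.7 and 18.5 CPM in myogenic cells and 34.3 to 156 CPM in the other types without fibres (-2.18 ± 0.39, adjusted p = 2.85e-06), and Ndufa3 16.6 and 74.1 CPM against 44.9 to 325 CPM (-1.89 ± 0.28). Ndufaf5, an assembly factor of complex I, had no count in the myogenic cells of either library. The higher members included Cycs (1.14 ± 0.17), Ndufaf4, with 128 and 136 CPM in myogenic cells and 10.0 to 73.3 CPM elsewhere outside fibres (1.68 ± 0.25), Cyc1, with 166 and 136 CPM against 50.1 to 149.7 CPM (0.71 ± 0.21), and Cox4i1, with 1165 and 1108 CPM against 374 to 1032 CPM (0.70 ± 0.15). Among the remaining types, fibres left out, B cells had 33 members higher and 2 lower, against 24.5% and 17.2% of genes, T or NK cells 26 and 2, against 21.4% and 14.7%, macrophages or monocytes 22 and 1, against 16.6% and 6.96%, and endothelial cells 10 and 19, against 29.1% and 10.0%. Fibro-adipogenic cells had 6 higher and 3 lower of 90 tested, against 2612 higher and 492 lower (5.64%) of 8717 genes, tenocytes 3 and 8, against 21.9% and 4.45%, mural cells 5 and 3, against 10.3% and 3.89%, and glial cells 1 and 2, against 7.82% and 3.26%.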

How the data were processed

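Single-cell 3′ libraries were analysed from the unnormalized UMI counts by gene and by cell barcode that the authors deposited, made with bcl2fastq 2.17.1 and Cell Ranger 2.2.0 on mm10, per the submitters' processing notes. The members and gene lists were chosen with earlier results of these data known. Cells with at least 200 genes and at most 10% mitochondrial UMIs were kept (15267 cells), and assigned to a type with at least 2 detected markers of its list and 2 times as many as of any other list. Doublets were scored with Scrublet in scanpy 1.11.5, which called 61 cells, too few to have worked, so cells with the highest scores were removed as an alternative. UMIs were summed per library over myogenic cells, or per library and cell type with library as a block, and tested with edgeR 4.0.16 (R 4.3.3; TMM, filterByExpr, quasi-likelihood, Benjamini-Hochberg over all genes). SE is the log2 fold change over the square root of F. Groups were compared in fits of 4 libraries for injury and for sorting, and of 5 for the myoblasts. Near-identical copies were transcripts matching the last 300 bases over 90 bases or more at 95% identity (blastn 2.17.0). Named genes were Sdha to Sdhd, Cyc1, Cycs, the isoform families and, per complex and comparison, the 2 largest called changes each way at 20 CPM or more, with and without copies. On simulated data the injury test recovered 98.4% of 4-fold, 60% of 2-fold and 11.5% of 1.5-fold changes over 10190 genes. Few genes were changed there, 63 by 4-fold, 57 by 2-fold and 80 by 1.5-fold, and all genes of a simulation shared 1 dispersion. In the data 75.2% of genes were called with injury, so these rates need not hold for the real test. Total UMIs per library ran from 3319283 to 114382567. Alternatives included DESeq2 1.42.0, other scalings, gates, Leiden clusters, thinning to 1000 UMIs and each library left out. Promoters and coordinates come from RefSeq tables of GRCm38.p6. One member is counted but its values are not reported here.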

Additional observations from a re-analysis of the deposited data

How the results depend on the processing

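The count of 78 members higher with injury lay between 75 and 82 in 13 other settings and between 76 and 79 with each library left out, and was 41 among members without a near-identical copy. The count lower, 0, became 1 without TMM, 2 with all cells in place of the gate, and 0 to 1 with a library left out. For homeostatic against total muscle cells, 2 higher became 0 with DESeq2, thinned cells or GC-rich barcodes, 1 without copies, 4 in a fit of 7 libraries and 16 with all cells, and 4 lower became 2 with DESeq2, without TMM or without copies, 1 with thinned cells or GC-rich barcodes, and 36 with all cells, which takes in every cell type of total muscle. Leaving out a library gave 0 to 1 higher and 1 to 2 lower. For myoblasts against injured cells, 15 higher became 8 with DESeq2 or without injured library 2 and 37 without TMM (8 to 15 over left-out libraries), and 47 lower became 17 without TMM and 23 without copies (34 to 49 over left-out libraries). Against homeostatic cells, 77 higher became 45 without copies (75 to 79 over left-out libraries), and 3 lower became 1 without TMM, 5 with all cells and 0 without copies (2 to 3 over left-out libraries). Members higher in myogenic cells of total muscle, 5, became 3 with a gate at 3 markers or thinned cells and 13 with fibres left out, when 41 lower became 19. With a library of total muscle left out, the median log2 difference was 2.95 to 3.22 in myofibre cells (3.29 with both) and -0.47 to -0.46 in myogenic cells (-0.59). The left-out values are plain differences of log2 CPM, and those with both libraries come from the edgeR fit. They thus differ in measure as well as in libraries.

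The log2 ratio of the summed level of all members with injury, 1.89, was 1.59 without TMM (for summed levels an alternative added after seeing the data), 2.03 with all cells, 2.18 with thinned cells, 2.26 with scaling over genes without copies and without ribosomal or mitochondrial genes, 2.09 without shared barcodes and 2.14 with GC-rich barcodes. For homeostatic against total muscle cells, -0.05 became 0.12 with thinned cells and 0.0089 with GC-rich barcodes. For myoblasts against injured cells, -0.72 became -0.024 without TMM, -0.52 without copies and -0.83 with that scaling. Against homeostatic cells, 1.17 became 1.57 without TMM, 1.38 with all cells, 1.53 with thinned cells, 1.32 without copies, 1.44 with that scaling, 1.37 without shared barcodes and 1.47 with GC-rich barcodes. Levels changed sign with all cells for homeostatic against total muscle in complex I (-0.23), complex III (0.14; 0.082 with thinned cells), complex IV (0.028) and Cycs (0.51; Uqcrh as a single gene 0.21). Without TMM, complex I (0.15), its assembly factors (0.46), Cox7a2 (0.11), Cox7b (0.20), Ndufa4 (0.25) and Sdhd (0.14) changed sign in myoblasts against injured cells, and the median of all genes moved by 0.70 there, by 0.40 against homeostatic cells and by -0.27 with injury. Ndufa4 in mural cells was 0.84 with Leiden clusters. The cause of these changes was not tested.

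Library numbers did not pair the samples, with correlations of deviations of -0.034 between injured and homeostatic and 0.059 between homeostatic and total muscle libraries. With a replicate block the counts of members higher and lower were 78 and 0 with injury, 3 and 7 for homeostatic against total muscle, 12 and 43 for myoblasts against injured, and 71 and 3 for myoblasts against homeostatic cells. Depth limits the myogenic cells of total muscle, with 243065 and 334632 UMIs, where simulated 2-fold changes between homeostatic and total muscle cells were recovered in 17.2% of 64 genes.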
